A study of Rattus norvegicus with 9 samples.

Results

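The mitochondrial respiratory chain was followed in rat liver through 101 annotated genes. They were taken by name from the protein-coding rows of the annotated tables. Their symbols began with Nduf, Uqcr, Atp5 or Sdhaf, or with Cox followed by 4 to 8, or equalled Sdha, Sdhb, Sdhc or Sdhd. These are 101 of 22250 protein-coding rows and of 32883 rows in all. Subunits made up 89 of them, with 39 in complex I, 4 in complex II, 9 in complex III, 20 in complex IV and 17 in complex V. The other 12, namely 8 Ndufaf and 4 Sdhaf genes, are assembly factors, which help to build complexes I and II and are not part of the finished enzymes; they are described apart. A further subunit, Cyc1, carries a symbol outside these patterns and is given with the electron carriers, and Ndufs6 is annotated here as a processed pseudogene and was not counted.

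The respiratory chain sits in the inner mitochondrial membrane and turns the energy of nutrients into ATP. Complex I takes electrons from NADH and complex II takes them from succinate, both pass them to coenzyme Q, complex III moves them on to cytochrome c, and complex IV hands them to oxygen. Complexes I, III and IV pump protons as they do so, and complex V, the ATP synthase, uses the returning protons to make ATP. Hepatocytes are rich in mitochondria and draw on this ATP for urea, glucose and plasma protein synthesis. Most subunits are encoded in the nucleus and imported, whereas 13 are encoded by mitochondrial DNA.

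Bulk poly(A) RNA sequencing covered 9 livers of male Sprague-Dawley rats aged 8 to 11 weeks, 3 in each of 3 groups. Normal livers came from rats without liver injury, for which no circuit is described. The other 6 livers came from rats with acute-on-chronic liver failure (ACLF), produced by bile duct ligation for 21 days followed by 0.25 mg/kg lipopolysaccharide, and both of these groups were connected to an extracorporeal blood circuit for 2 h, starting 1 h after lipopolysaccharide. In the empty group the circuit held neither cells nor adsorbent, and in the UTOpiA group it held a column of cellulose acetate beads that removes granulocytes and monocytes, together with encapsulated hepatocyte-like cells derived from human induced pluripotent stem cells. ACLF livers were taken at 24 h after lipopolysaccharide from surviving rats selected at random, so both ACLF groups describe survivors only. Empty against normal therefore contrasts the whole injury and procedure with healthy liver, and UTOpiA against empty contrasts the contents of the circuit.

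Libraries held 14241172 to 17321677 counts, and replicate libraries differed by more than sampling noise, so all 9 counted as separate samples. Levels are given as normalised counts per 1e+06 (CPM), scaled by the trimmed mean of M values (TMM), and a gene was called higher or lower at a Benjamini-Hochberg adjusted p under 0.05 in edgeR's quasi-likelihood test over 14089 genes. The TMM factors ranged over 0.802 to 0.827 among normal libraries, whereas ACLF libraries had 0.86 to 1.32, so the scaling matters for every direction given here. When libraries were scaled by their totals alone, the median log2 change of all genes moved from 0.04 to 0.60 for empty against normal, from 0.05 to 0.42 for UTOpiA against normal, and from 0.0012 to -0.18 for UTOpiA against empty. The 14 hepatocyte markers, of which 10 were lower and 1 higher in empty than in normal livers, summed to 163000 to 176800 transcripts per 1e+06 (TPM) in normal livers, 26510 to 55680 in empty livers and 29290 to 56430 in UTOpiA livers. The 8 tested cholangiocyte markers were all higher in empty livers, and the list went from 15 to 25.4 TPM in normal livers to 333 to 705 TPM in empty livers and 138 to 441 TPM in UTOpiA livers. All 6 tested neutrophil markers were higher too, and that list summed to 9.64 to 12.5, 900 to 2727 and 5540 to 6714 TPM in the same order, and no marker of these lists was at 0 in all 9 libraries. The higher neutrophil sum in UTOpiA than in empty livers went with Lcn2 (log2 2.63), which other cell types also express, whereas the other 5 tested markers lay below 0 in that comparison, and none of the 6 was called. Because the RNA came from whole tissue, a smaller share of hepatocytes and a lower RNA level per hepatocyte cannot be told apart in any value below.

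Of the 89 subunits, 79 had enough reads to be tested, and so did 11 of the 12 assembly factors. All 4 complex II, 9 complex III and 17 complex V subunits were tested, as were 36 of 39 in complex I and 13 of 20 in complex IV. The untested rows were the muscle, testis or otherwise tissue-restricted forms Cox6a2, Cox6b2, Cox7a1, Cox7b2, Cox8b and Cox8c, the pseudogene-like row Cox6c-ps1, Ndufa4l2, the second copies of Ndufa10l1 on chromosome 6 and of Ndufv3 on chromosome 13, and Sdhaf1. Cox7b2, Cox8b, Cox8c and Cox6c-ps1 had 0 counts in all 9 libraries. Cox6b1 and Uqcrb each occupied 2 rows on different chromosomes that both held reads, and since the reads of near-identical copies may be split between them, the values of these rows are uncertain.

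In normal liver the members spanned a wide range of levels. The highest was Atp5f1b, the catalytic beta subunit of the ATP synthase, at 1710 TPM, followed by Atp5f1a, its alpha partner, at 887 TPM, and Cox4i1, the main form of complex IV subunit 4, at 772 TPM. The sum over the 89 subunits was 20510 to 21670 TPM in normal livers, 14830 to 16890 TPM in empty livers and 15820 to 17020 TPM in UTOpiA livers. On this scale of deposited TPM, both ACLF groups lay below the normal group without overlap, and they overlapped with each other.

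Proximal promoters of the genes that fell furthest in their complexes, among those holding the letters searched, are shown because the nuclear subunits are known to share regulators of the ETS family, to which the nuclear respiratory factor GABP (NRF-2) belongs. Of the members, 85 could be matched by symbol, or by gene identifier with a listed synonym, to promoters in RefSeq for build GRCr8. These span 300 bases, from 250 before to 50 after the gene start. Atp5md and Cox7a2l2 lay on other chromosomes there than in the deposited annotation. The set of all promoters was not filtered by gene type or expression, so it is not matched to the members. The 7 letters CCGGAAG, a core of ETS sites, were found on either strand in 25 of these 85 promoters, which is 29.4%, against 2927 of all 33469 promoters, which is 8.75%. The 8 letters GCATGCGC, a core of NRF1 sites, were found in 11 of 85, or 12.9%, against 827 of 33469, or 2.47%. These windows of 60 bases are written along the gene's own strand, with the CCGGAAG match or its reverse complement in capitals; a match of letters is a description and not evidence of a binding site.
Ndufs1, chr9:72073771-72073830, minus strand: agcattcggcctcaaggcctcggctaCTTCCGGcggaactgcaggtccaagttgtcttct
Sdhb, chr5:158547800-158547859, plus strand: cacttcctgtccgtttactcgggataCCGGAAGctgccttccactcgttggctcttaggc
Uqcrc2, chr1:184599180-184599239, plus strand: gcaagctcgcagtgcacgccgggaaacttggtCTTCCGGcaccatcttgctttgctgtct
Cox5b, chr9:46417777-46417836, plus strand: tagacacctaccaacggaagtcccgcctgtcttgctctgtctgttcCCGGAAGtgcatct
Atp5f1a, chr18:73567451-73567510, plus strand: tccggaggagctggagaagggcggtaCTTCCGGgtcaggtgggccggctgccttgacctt

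In ACLF livers with the empty circuit, transcripts of all 5 complexes were lower than in normal liver. Of the 79 tested subunits, 66 fell and 2 rose, which is 83.5% lower and 2.53% higher, against 21.5% of all genes lower and 26.9% higher. The median log2 change over the 79 was -0.92, which lay 0.97 below the median of all genes under TMM and 0.96 below it under library totals. A fall of more than 2-fold was called for 33 subunits, and 11.1% of all genes met the same rule. All 3 empty livers lay below all 3 normal livers for 72 of 79 subunits, or 91.1%, against 28.8% of all genes. Under library totals the split became 34 lower and 4 higher among subunits, while that of all genes went from 3036 lower and 3788 higher to 1179 lower and 6239 higher. Of the 66 that fell under TMM, 8 lay above 0 under library totals, at most by 0.17 on the log2 scale.

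**Figure D1:**
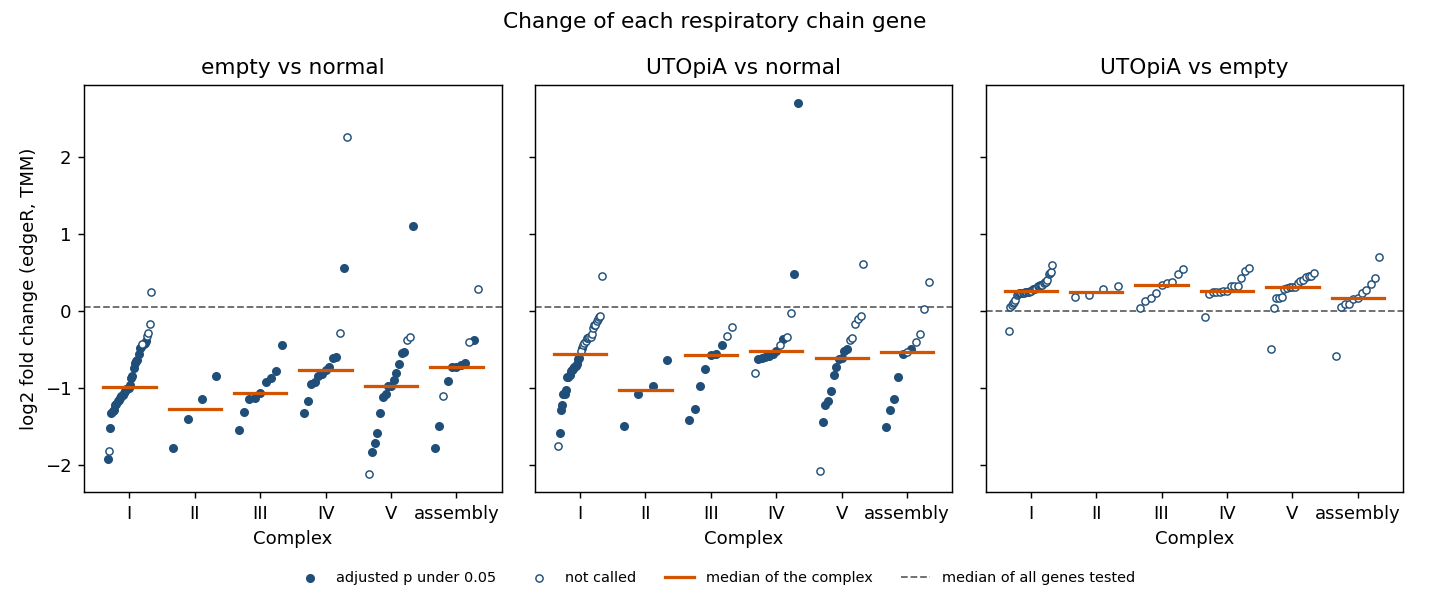
Log2 fold change of every tested respiratory chain gene (y axis) in each complex and in the assembly factors (x axis), for the 3 comparisons; filled points passed an adjusted p under 0.05, open points did not, orange bars are medians of a complex and the dashed line is the median of all 14089 genes. Nearly all points lie below the dashed line in the first 2 panels, and in the third all points are open and 76 of the 79 subunits lie above 0.

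Complex I receives electrons from NADH at a flavin site and passes them along iron-sulphur clusters. Of its 36 tested subunits, 30 fell and none rose, with a median log2 change of -0.99. Under library totals 17 were lower and 1 higher, with a median of -0.43. Ndufs1, the largest iron-sulphur subunit (chr9:69919867-69953182 in the deposited annotation), stood at 281, 329 and 289 CPM in normal livers, 79.8, 91.3 and 65.3 CPM in empty livers and 94.3, 94.9 and 110 CPM in UTOpiA livers. Both ACLF groups lay far below the normal range. Its fall in empty livers was 3.8-fold (log2 -1.93 ± 0.18 SE, n = 3 livers per group, edgeR adjusted p = 8.79e-05). Ndufv1, the NADH-binding subunit, fell 2.33-fold and the neighbouring Ndufv2 fell 2.01-fold. All 7 tested core subunits, which carry out electron transfer, fell by more than 2-fold. Among the 29 tested accessory subunits, which surround and stabilise the core, 23 fell and 10 of these did so by more than 2-fold. The largest called accessory fall was that of Ndufa10l1 on chromosome 9, at 2.51-fold (log2 -1.33 ± 0.19 SE). Small accessory subunits Ndufa3 and Ndufa12, picked out after their values were seen, showed no call, with log2 changes of 0.25 ± 0.28 and -0.17 ± 0.25 (SE). Under library totals Ndufa3 was called higher in empty and in UTOpiA livers (log2 0.82 and 0.78, edgeR adjusted p = 0.0264 and 0.0415).

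Complex II, succinate dehydrogenase, links the citric acid cycle directly to the chain and is the only complex built from nuclear genes alone. All 4 of its subunits fell, with a median of -1.28. Sdha, the flavoprotein that oxidises succinate, went from 486, 517 and 493 CPM in normal livers to 140, 178 and 118 CPM in empty livers, with 190, 146 and 195 CPM in UTOpiA livers. The normal livers stood above the other 6 without overlap, and the ACLF groups overlapped. The fall in empty livers was 3.43-fold (log2 -1.78 ± 0.21 SE, edgeR adjusted p = 0.000261). Sdhb, the iron-sulphur subunit, fell 2.66-fold and Sdhd, a membrane anchor, fell 2.22-fold. Sdhc, the other anchor, fell 1.8-fold, a change that was not called under library totals or on the TPM scale.

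Complex III was lower throughout, with 9 of 9 rows falling and a median of -1.06. Under library totals 5 were lower and none higher, with a median of -0.50. Uqcrc2, a large core protein on the matrix side, stood at 335, 414 and 355 CPM in normal livers, 123, 148.2 and 107 CPM in empty livers and 124, 132 and 157 CPM in UTOpiA livers. The lowest normal liver thus held more than the highest ACLF liver. It fell 2.92-fold in empty livers (log2 -1.55 ± 0.19 SE, edgeR adjusted p = 0.000303). Its partner Uqcrc1 fell 2.48-fold, and Uqcrfs1, the Rieske iron-sulphur protein, fell 2.21-fold. The small subunits ranged from -1.13 for Uqcrb on chromosome 1 to -0.44 for Uqcrh, the hinge protein, which was 1 of the 8 above 0 under library totals.

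Complex IV, cytochrome c oxidase, showed a median of -0.77, with 10 of 13 tested rows falling and 1 rising. Under library totals the median was -0.21, with 2 lower and 2 higher. Cox5b, a subunit on the matrix side that binds zinc, went from 171, 180 and 155 CPM in normal livers to 61.8, 48.9 and 91.2 CPM in empty livers, and stood at 75.8, 70.9 and 143 CPM in UTOpiA livers. All ACLF livers lay below the normal range, with UTOpiA replicate 3 nearest to it in CPM, whereas on deposited TPM empty replicate 3 at 417 and UTOpiA replicate 3 at 426 were about equally near. The fall in empty livers was 2.5-fold (log2 -1.32 ± 0.31 SE, edgeR adjusted p = 0.00626). Cox7b fell 2.24-fold and Cox6a1, the liver form of subunit 6a, fell 1.92-fold. Cox4i1 fell 1.79-fold. The calls of Cox6a1 and Cox4i1 were lost under library totals and on the TPM scale. Cox5a, which sits beside Cox5b, went from 113, 97.0 and 93.0 CPM to 84.0, 84.7 and 80.4 CPM and was not called (log2 -0.28 ± 0.17 SE, edgeR adjusted p = 0.182), and its sign turned to 0.27 under library totals.

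Forms of complex IV subunits that are usual in liver were set beside those restricted to other tissues, with Ndufa4 and Ndufa4l2, counted above with complex I by their symbols, among the usual and the restricted forms. All 7 tested rows of the usual forms fell in empty livers, with log2 changes from -1.17 to -0.60, where 21.5% of all genes were lower. Both Cox6b1 rows are among these 7, and Cox7a2, a usual form on the list, had no row of that name. Under library totals only Ndufa4 and Cox7b kept the call. Of the 8 restricted forms only Cox4i2, known for its expression in lung and under low oxygen, could be tested. It stood at 0.175, 0.404 and 0.0 CPM in normal livers, 0.933, 0.697 and 1.25 CPM in empty livers and 0.325, 1.77 and 1.81 CPM in UTOpiA livers, which is close to the limit of detection. With 2, 5 and 0 counts in normal livers, it passed the filter on low counts through the ACLF livers where it is higher, so its calls are no support for a change of these forms. It was not called in empty livers (log2 2.26 ± 0.91 SE, edgeR adjusted p = 0.0635), although DESeq2, library totals, the TPM scale, the 6 libraries alone and the fits without normal replicate 2 or UTOpiA replicate 1 did call it. In UTOpiA livers it was called higher than normal (log2 2.70 ± 0.90 SE, edgeR adjusted p = 0.0391), a call lost without any one of normal replicates 1 and 3, empty replicates 1 and 3, and UTOpiA replicates 2 and 3.

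Cox7a2l rose in both ACLF groups. The protein, also called SCAFI, is known to join complexes III and IV into supercomplexes and is not a subunit of the catalytic core. Its gene (chr6:6695827-6709783) stood at 52.0, 51.9 and 53.9 CPM in normal livers, 84.7, 67.0 and 80.3 CPM in empty livers and 64.6, 83.7 and 72.1 CPM in UTOpiA livers. Every ACLF liver exceeded every normal liver. The rise was 1.47-fold in empty livers (log2 0.56 ± 0.14 SE, edgeR adjusted p = 0.0106) and 1.40-fold in UTOpiA livers (log2 0.48 ± 0.14 SE, edgeR adjusted p = 0.0249), and under library totals it came to log2 1.11 and 0.87. The call in UTOpiA livers was lost without any one of normal replicates 1, 2 and 3 and UTOpiA replicate 2.

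Complex V consists of the F1 head, where ATP is made, a rotating ring of c subunits in the membrane, and a peripheral stalk that holds the head still. Of its 17 subunits, 13 fell and 1 rose, with a median of -0.97. Under library totals 7 were lower and 1 higher, with a median of -0.41, and Atp5f1d and Atp5mc3 were among those that lost the call. Atp5f1a, the alpha subunit of the head (chr18:74156553-74164495), stood at 1130, 1195 and 1113 CPM in normal livers, 315, 360 and 292 CPM in empty livers and 418, 370 and 474 CPM in UTOpiA livers. In CPM the 3 groups did not overlap, with UTOpiA between the other 2. On deposited TPM the ACLF groups overlapped, at 328.9, 393.0 and 349.4 in empty and 412.2, 428.5 and 369.0 in UTOpiA livers. In empty livers it fell 3.56-fold (log2 -1.83 ± 0.20 SE, edgeR adjusted p = 0.000191). Atp5f1b fell 2.99-fold, from 2148, 2204 and 1991 CPM to 693, 809 and 617 CPM. All 5 tested head subunits fell, with a median of -1.33, down to Atp5f1d and Atp5f1e at -0.81 and -0.97. The 3 c-ring genes encode the same mature protein and behaved unequally: Atp5mc1 fell 3.29-fold, Atp5mc3 fell 1.86-fold, and Atp5mc2 was not called (log2 -0.33 ± 0.15 SE, edgeR adjusted p = 0.0908). The differences among these 3 genes were not tested.

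Atp5if1, the natural inhibitor of the ATP synthase that limits ATP hydrolysis when the membrane potential falls, rose in empty livers. Its gene (chr5:150719569-150723321) stood at 22.5, 19.8 and 25.99 CPM in normal livers, 48.0, 38.8 and 60.4 CPM in empty livers and 35.5, 44.4 and 24.4 CPM in UTOpiA livers. Empty livers lay above the normal range, and UTOpiA livers overlapped with both groups. Erythroid markers, of which 4 of 5 tested were higher and 1 lower in empty than in normal livers, summed to 109 to 312 TPM in normal, 2530 to 4047 TPM in empty and 838 to 1401 TPM in UTOpiA livers, and their part in the result was not tested. The rise in empty livers was 2.16-fold (log2 1.11 ± 0.24 SE, edgeR adjusted p = 0.00444). The change from normal was not called in UTOpiA livers (log2 0.61 ± 0.24 SE, edgeR adjusted p = 0.0661) but became a call without UTOpiA replicate 3 or without empty replicate 2, under library totals, and with at least 10 counts in every library. UTOpiA against empty was -0.50 ± 0.23 (SE) on the log2 scale and was not called (edgeR adjusted p = 0.505).

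**Figure D2:**
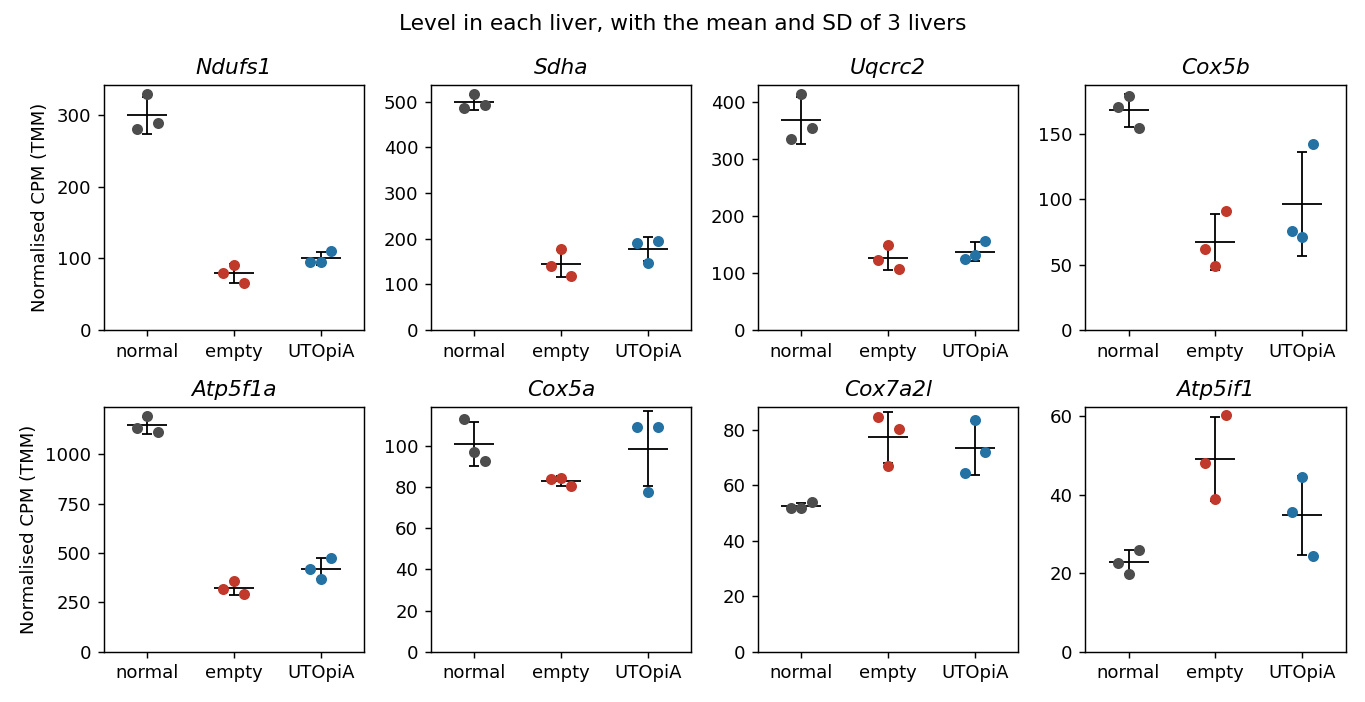
TMM-normalised CPM (y axis, from 0) of 8 genes in each of the 9 livers, by group on the x axis, with bars for the mean and SD of 3 livers. Ndufs1, Sdha, Uqcrc2, Cox5b and Atp5f1a are lower in ACLF livers, Cox5a shows UTOpiA livers overlapping with both other groups, and Cox7a2l and Atp5if1 show higher levels in empty than in normal livers.

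When the tested subunits were divided by textbook role, a grouping made after values had been seen, the 19 core subunits of complex I, large subunits of complex III, F1 head subunits and complex II subunits all fell in empty livers, 16 of them by more than 2-fold, with a median of -1.22. Of the other 60, 47 fell and 17 did so by more than 2-fold, with a median of -0.80. In the first set Ndufs8, Sdhc and Atp5f1d lost the call under library totals. Within each liver, where scaling drops out, the median difference from normal of the first set minus that of the second was -0.64, -0.31 and -0.49 in empty livers and -0.56, -0.59 and -0.60 in UTOpiA livers, against 0.0040, 0.05 and -0.06 in normal livers. In every ACLF liver the first set thus stood lower than the second by more than the spread of normal livers.

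The same sets differed in length as well. The length over which reads were counted, read back from the ratio of counts to TPM and expressed relative to the median gene, had a median of 0.748 in the first set and 0.261 in the second. Across the 79 subunits Spearman's rho between this length and log2 change was -0.416 for empty against normal and -0.517 for UTOpiA against normal. Across all 14089 genes, measured in the same libraries, it was 0.0606 and 0.0469. Role and length run together among the subunits, and their parts in the difference were not tested.

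**Figure D3:**
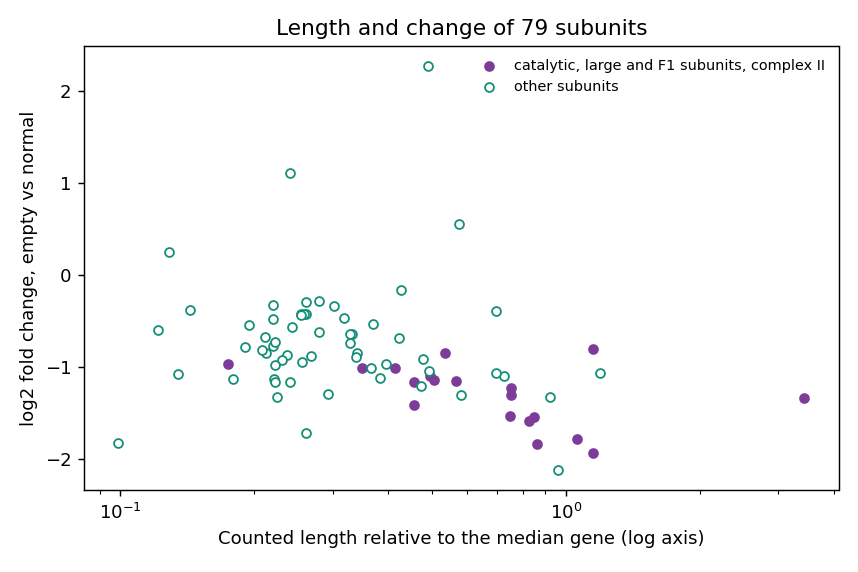
Log2 fold change of empty against normal (y axis) and counted length relative to the median gene (x axis, log scale) for the 79 tested subunits; filled points are core, large and F1 head subunits with complex II, and open points are the other subunits. The filled points all lie below 0, at -0.81 or lower.

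Of the 11 tested assembly factors 8 fell, which is 72.7% against 21.5% of all genes, none rose, and the median was -0.72. Under library totals 2 were lower and 1, Sdhaf4, was higher, with a median of -0.16. Sdhaf3, which helps to mature the iron-sulphur subunit of complex II, went from 7.44, 7.60 and 8.12 CPM in normal livers to 2.28, 2.20 and 2.26 CPM in empty livers, and stood at 4.16, 2.02 and 1.96 CPM in UTOpiA livers. Normal livers did not overlap with the others. It fell 3.43-fold in empty livers (log2 -1.78 ± 0.32 SE, edgeR adjusted p = 0.00168). Ndufaf2 fell 2.82-fold and Ndufaf1 fell 1.88-fold, both factors for complex I, and the call of Ndufaf1 was lost under library totals and on the TPM scale. Of 43 tested assembly factors with other names, 28 fell and none rose (11 lower and 2 higher under library totals), led by Tmem70, which aids the ATP synthase (3.41-fold), and Nubpl, which delivers iron-sulphur clusters to complex I (3.13-fold).

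In UTOpiA livers the subunits were again lower than in normal liver. Of the 79 tested, 46 fell and 2 were called higher, namely Cox7a2l and the barely detected Cox4i2, against 16.2% of all genes lower and 23.3% higher, and the share of subunits lower was 58.2%. The median log2 change was -0.59, with -0.57 in complex I, -1.03 in complex II, -0.58 in complex III, -0.52 in complex IV and -0.61 in complex V. A fall of more than 2-fold was called for 14, against 6.81% of all genes, and the groups were apart with UTOpiA lower for 73.4% of subunits, against 26.1% of all genes. The split under library totals was 22 lower and 4 higher, while that of all genes went from 2285 lower and 3286 higher to 959 lower and 4576 higher. None of the 46 lay above 0 under library totals. All 7 core subunits of complex I, all 4 subunits of complex II, the 3 large subunits of complex III and all 5 head subunits fell. Of these, Ndufs7, Ndufs8, Ndufv2, Sdhc, Atp5f1d and Atp5f1e lost the call under library totals. Ndufs1 fell 3.00-fold (log2 -1.59 ± 0.18 SE, edgeR adjusted p = 0.000295), Sdha fell 2.81-fold and Atp5f1a fell 2.73-fold. Cox5b was not called (log2 -0.80 ± 0.30 SE, edgeR adjusted p = 0.0596), and it was without UTOpiA replicate 3 (log2 -1.20, edgeR adjusted p = 0.00767), without empty replicate 2 or 3, and by DESeq2. Of the assembly factors, 6 of 11 fell. Ndufaf4, a factor for early complex I assembly, stood at 36.1, 38.1 and 34.4 CPM in normal, 22.4, 18.7 and 25.6 CPM in empty and 11.5, 15.5 and 17.5 CPM in UTOpiA livers. It fell 2.44-fold from normal in UTOpiA livers (edgeR adjusted p = 0.000853), and although all 3 UTOpiA livers lay below the empty ones, that difference was not called (log2 -0.58 ± 0.18 SE, edgeR adjusted p = 0.370).

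UTOpiA and empty livers were then compared directly. This asks whether, among survivors, the contents of the circuit went with another level of respiratory chain transcripts. No subunit was called in either direction by edgeR, where 0.0% of all genes were called higher and 0.0% lower. At an unadjusted p under 0.05, 21 subunits were higher and none lower, which is 26.6% of 79, against 5.77% of all genes higher and 4.56% lower. The estimates were above 0 for 76 of the 79 subunits, with a median of 0.29 against 0.0012 for all genes, and by complex the median was 0.26 in I, 0.25 in II, 0.34 in III, 0.26 in IV and 0.31 in V. All 3 UTOpiA livers exceeded all 3 empty livers for 30 subunits, or 38.0%, against 6.15% of all genes, and for no subunit did they all fall below. Under library totals the subunit median was 0.07 and that of all genes -0.18, and 17 of 79 subunits were then below 0. As the 79 genes share the same 6 livers, these counts do not have 79 independent members.

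Uqcr11, the smallest complex III subunit, stood at 52.1, 46.8 and 50.7 CPM in empty and 70.8, 62.6 and 84.5 CPM in UTOpiA livers. The groups did not overlap, and the difference of 1.46-fold (log2 0.54 ± 0.14 SE) was not called by edgeR (adjusted p = 0.309). DESeq2 called it higher at adjusted p = 0.0432, the only subunit it called, where 0.663% of all genes were called higher. Cox7b stood at 85.8, 69.5 and 74.0 CPM in empty and 102, 93.0 and 142 CPM in UTOpiA livers. Atp5f1e, a small head subunit, stood at 78.0, 74.9 and 79.1 CPM in empty and 102, 94.5 and 122 CPM in UTOpiA livers. Both were apart between the groups by less than 1.5-fold, and neither was called, at edgeR adjusted p = 0.395 and 0.369.

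Livers of the UTOpiA group differed among themselves. The median difference of the 79 subunits from the mean normal liver, on the log2 scale, was -0.85, -0.99 and -0.88 in the 3 empty livers and -0.59, -0.80 and -0.34 in the 3 UTOpiA livers. On this scale all 3 UTOpiA livers were nearer to normal than all 3 empty livers, and UTOpiA replicate 3, which had the lowest TMM factor of the ACLF libraries at 0.86, was the nearest. On deposited TPM the order was another, since the summed subunits came to 16930, 17020 and 15820 TPM in UTOpiA and 15020, 14830 and 16890 TPM in empty livers, with UTOpiA replicate 3 the furthest of its group from normal. Complex II overlapped between the groups, at -1.21, -1.27 and -1.36 in empty and -0.97, -1.23 and -0.89 in UTOpiA livers. So did complex I, at -0.85, -0.97 and -0.97 in empty and -0.50, -0.88 and -0.34 in UTOpiA livers. Without UTOpiA replicate 3 the median of UTOpiA against empty in complex I went from 0.26 to 0.16, and without UTOpiA replicate 2 it went to 0.39. In complexes II and IV the median without UTOpiA replicate 3 was 0.16 and 0.15. The hepatocyte markers in the same livers had medians of -1.67, -1.26 and -1.80 in empty and -0.79, -1.43 and -0.99 in UTOpiA livers on the same scale, and their part in the differences between livers was not tested.

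**Figure D4:**
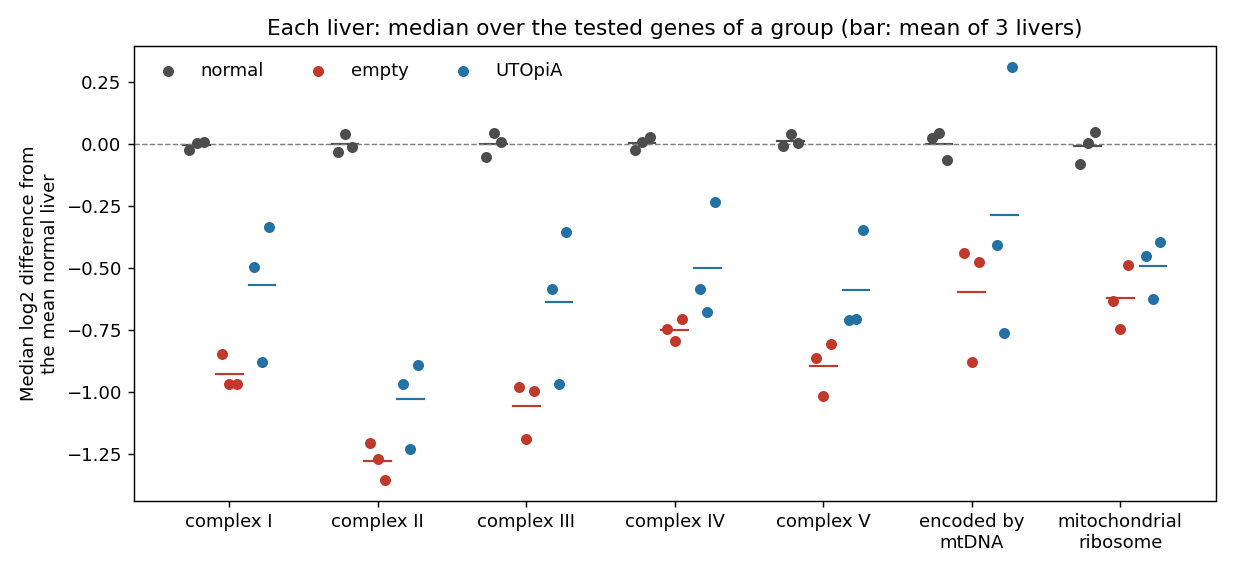
Median log2 difference from the mean normal liver (y axis) over the tested genes of each complex, of the 13 genes encoded by mitochondrial DNA and of the mitochondrial ribosomal proteins (x axis), 1 point per liver and a bar for the mean of 3 livers. ACLF livers lie below normal livers for all 5 complexes, and within each complex the UTOpiA livers spread more widely than the empty livers.

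All 13 subunits encoded by mitochondrial DNA had estimates below 0 in empty livers, from -0.99 to -0.20 on the log2 scale. Of these, 2, Mt-nd4 and Mt-co2, were called lower (log2 -0.74 ± 0.25 and -0.87 ± 0.29 SE, edgeR adjusted p = 0.0332 and 0.0298), where 21.5% of all genes were. None was called higher, and the median was -0.57, but under library totals the median was -0.0064 and 6 of the 13 lay above 0. The summed TPM of the 13 overlapped between groups, at 106400 to 117200 in normal, 105400 to 117800 in empty and 102000 to 147200 in UTOpiA livers. Mt-co2, subunit 2 of complex IV, stood at 8951, 9605 and 8771 CPM in normal and 5748, 4379 and 4790 CPM in empty livers, with 5560, 5008 and 7781 CPM in UTOpiA livers. Both calls were lost under library totals, Mt-nd4 was also lost without any single normal or empty liver or UTOpiA replicate 1, and Mt-co2 without any one of the normal livers or empty replicates 2 and 3. In UTOpiA livers none of the 13 was called against normal, at a median of -0.16 that turned to 0.16 under library totals, with 1 at an unadjusted p under 0.05, and DESeq2 called 2 lower. Their liver medians minus those of the 79 nuclear subunits were 0.41, 0.11 and 0.40 in empty and 0.18, 0.03 and 0.66 in UTOpiA livers, against 0.05, 0.02 and -0.07 in normal livers. The mitochondrial transcripts thus stood higher relative to the nuclear ones than in any normal liver in 5 of the 6 ACLF livers, and UTOpiA replicate 2 lay within the normal range. Neighbouring mitochondrial genes overlap, so reads may be split between them and these values are less certain than those of nuclear genes.

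Genes that serve the chain were counted in the same fit, where 21.5% of all genes were lower in empty livers. Of 11 tested electron carriers and entry enzymes, 8 fell in empty livers and none rose, and under library totals 5 were lower and 1 higher. Cyc1, the cytochrome c1 subunit of complex III, went from 212, 225 and 213 CPM to 78.7, 93.4 and 78.2 CPM in empty livers, a 2.6-fold fall, with 110, 83.7 and 118 CPM in UTOpiA livers. Nnt, which makes NADPH from NADH with the proton gradient, fell 3.82-fold. Of 13 coenzyme Q synthesis genes, 7 fell and none rose, led by Coq8a at 4.49-fold, and under library totals 7 were lower and 1 higher. Of 73 mitochondrial ribosomal protein genes, which make the 13 mitochondrial subunits, 53 fell and none rose, with a median of -0.61, but under library totals 10 were lower and 3 higher, with a median of -0.05. Mrpl15, the gene with the largest fall among them, went from 131, 140 and 145 CPM to 29.8, 29.9 and 27.9 CPM. Of 22 tested protein import genes, 5 were lower, a share near that of all genes, and 1, Tomm20, was higher, a call lost without normal replicate 1, whereas under library totals 3 were lower and 8 higher.

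A list made for the exchange of ADP and ATP across the inner membrane also held Ucp2, a carrier of another kind. It included members that fell and members that rose. Slc25a5, the adenine nucleotide translocase usual in liver and dividing cells, fell 2.36-fold, from 501, 540 and 516 CPM in normal to 238, 198 and 224 CPM in empty livers. Slc25a4, the form of heart and muscle, rose from 4.20, 6.39 and 5.25 CPM to 110, 73.3 and 118 CPM in empty livers and stood at 76.3, 174 and 76.4 CPM in UTOpiA livers. Ucp2, an inner membrane carrier prominent in macrophages, rose from 13.0, 10.1 and 9.51 CPM to 113, 80.2 and 168 CPM. Of the 10 tested genes of this list, 5 fell and 3 rose in empty livers, where 21.5% of all genes fell and 26.9% rose, and under library totals 2 were lower and 4 higher. Macrophage markers summed to 232 to 271 TPM in normal and 631 to 1056 TPM in empty livers, and stellate and fibroblast markers to 113 to 124 and 991 to 1243 TPM, with 7 of 9 markers rising in each list, and their part in these rises was not tested.

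Regulators of mitochondrial biogenesis were counted too, and their direction depended on the scaling. Of 21 tested, 8 fell in empty livers and none rose, with a median of -0.52, where 21.5% of all genes fell, but under library totals none was lower and 2 were higher, with a median of 0.03. Ppargc1b, a coactivator of mitochondrial genes, fell 3.28-fold, Tfb1m, which modifies mitochondrial ribosomal RNA, fell 2.13-fold, and Esrra, a nuclear receptor that binds respiratory chain promoters, fell 1.66-fold, a call lost under library totals and on the TPM scale. Under library totals Ppargc1b and Tfb1m also lost their calls (edgeR adjusted p = 0.0503 and 0.0510), and Ppargc1b lost it by limma on both filtered TPM scales. Ppargc1a, the best known coactivator of this programme, stood at 4.73, 4.93 and 4.26 CPM in normal, 3.01, 3.16 and 3.17 CPM in empty and 3.71, 5.45 and 5.12 CPM in UTOpiA livers. Empty livers were lowest without overlap, but the change was not called (log2 -0.57 ± 0.24 SE, edgeR adjusted p = 0.0689). Tfam, which packages and transcribes mitochondrial DNA, was not called in empty livers (log2 -0.46 ± 0.17 SE, edgeR adjusted p = 0.0527), and became a call without empty replicate 1. Nrf1 and Gabpa were not called either, at log2 0.16 and -0.17, and the signs of Tfam and Gabpa turned under library totals, where Nrf1 was called higher (log2 0.71, edgeR adjusted p = 0.0383).

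Ndufa1 and Atp5pb, picked out after their values were seen, varied within groups far more than other members. Ndufa1, a small complex I subunit on the X chromosome (chrX:124513269-124516705), had 299, 295 and 422 counts in normal livers, 6, 204 and 263 in empty livers and 385, 2 and 1 in UTOpiA livers. Atp5pb, the b subunit of the peripheral stalk (chr2:208408890-208420163), had 119, 842 and 847 counts in normal, 80, 78 and 534 in empty and 77, 483 and 70 in UTOpiA livers. Low values occurred in some livers of a group and not in others. Among 87 members with a mean of at least 5 CPM, these 2 (2.30%) had a spread over 4-fold within a group, against 6.33% of 10010 genes with the same mean. Neither was called against normal, but Atp5pb was called lower in empty livers without empty replicate 3 (log2 -3.56, edgeR adjusted p = 0.0281), and Ndufa1 in UTOpiA livers without UTOpiA replicate 1 (log2 -8.17, edgeR adjusted p = 0.0101). Their estimates therefore rest on single livers, and whether these counts follow the genes' expression or the way their reads were assigned was not tested.

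**Figure D5:**
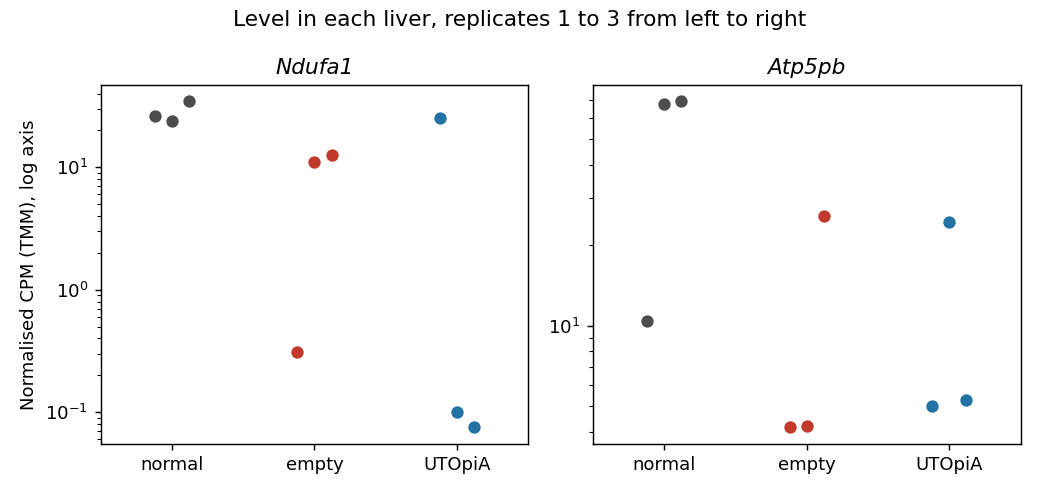
TMM-normalised CPM (y axis, log scale) of Ndufa1 and Atp5pb in each of the 9 livers, replicates 1 to 3 from left to right in each group on the x axis. Low livers occur in the empty and UTOpiA groups for both genes, and in the normal group for Atp5pb.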

How the data were processed

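Liver RNA of 9 rats was measured, 3 per group as titled in the labels. The authors deposited raw counts per gene and TPM for the same genes; per the labels, libraries were made with a directional poly(A) kit, and the submitters' processing notes name Trimmomatic, HISAT2, featureCounts and build rn6, whereas the study's methods name another trimmer, kit and the mouse build, and the counting strand is not given in the sources used here. Coordinates are those of the deposited annotation. Counts were filtered with filterByExpr, scaled by TMM and tested with edgeR 4.0.16 (robust quasi-likelihood, R 4.3.3, 1 mean per group, all 9 libraries), two-sided, with Benjamini-Hochberg adjustment over 14089 genes; p-values measure the spread between these livers. Alternatives were DESeq2 1.42.0, other scalings and filters, limma 3.58.1 on log2(TPM + 1) and log2(TPM + 0.1), a replicate block and each library left out. The steps were tested on simulated data. Exact permutation of 3 against 3 livers cannot go below p = 0.1, so single values carry no such test. Detection is limited to about 3 counts per library, for counting error only.

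The members, the lists and the comparisons were chosen with earlier results of these data known. Genes were named from the up to 3 called members per complex and direction with the largest change in empty livers, fixed lists of core and isoform genes, the 2 lowest unadjusted p per complex for UTOpiA against empty, up to 2 called members per direction in each other list, and Ppargc1a, Tfam, Nrf1, Gabpa and Esrra; part of these are described. Ndufv2, Ndufa1, Ndufa3, Ndufa12, Uqcrh, Atp5f1d, Atp5mc2, Atp5mc3, Atp5pb and Sdhaf4 lie outside this rule and were chosen after their values were seen.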

Additional observations from a re-analysis of the deposited data

How the results depend on the processing

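Subunits lower in empty livers numbered 66, and 34 under library totals, 37, 37 and 36 by limma on log2(TPM + 1), log2(TPM + 0.1) and log2(TPM + 1) without a filter, and 33 with a fold above 2; those higher numbered 2, and 4 by DESeq2, 4 under library totals, 4, 5 and 4 by limma, and 1 with a fold above 2. Against normal, subunits lower in UTOpiA livers numbered 46, and 22, 25, 25 and 22 in the same order, and 14 with a fold above 2; those higher numbered 2, and 4 under library totals, 4 and 1 by limma with the offset of 0.1 and without a filter, 1 with only the 6 libraries compared and 1 with a fold above 2. For UTOpiA against empty DESeq2 gave 1 higher instead of 0. Leaving out 1 library gave 56 to 67 lower and 2 to 3 higher in empty livers, 33 to 56 lower and 0 to 3 higher in UTOpiA livers against normal, where it was 0 without normal replicate 1, normal replicate 3 or UTOpiA replicate 2, and 0 to 0 in UTOpiA against empty.

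Replicate numbers did not pair livers: deviations of libraries with the same number correlated at -0.18 to 0.06, and 1 of 9 libraries correlated best with its own number. With the replicate block, UTOpiA against normal had 0 subunits higher. The cause was not tested for any of these.

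The sign turned for few named genes. In empty livers Cox5a gave 0.27 under library totals and 0.24, 0.24 and 0.24 by limma on log2(TPM + 1), log2(TPM + 0.1) and without a filter, Gabpa gave 0.38, 0.32, 0.35 and 0.32, and Tfam gave 0.0857, 0.0386, 0.0393 and 0.0386. For the log2 fold change of Cox5a, UTOpiA vs normal, the values were 0.31, 0.27, 0.27 and 0.27, then 0.0495 with at least 10 counts in every library, and -0.122 to 0.116 leaving out 1 library, and Cox6b1 on chromosome 2 gave 0.0083 under library totals. For Sdhc in UTOpiA against empty limma gave -0.0017, -0.0017 and -0.0017. Of 2436 single-gene values under alternatives, 2231 kept direction and side of the threshold, 158 lost the call, 24 gained one and 23 changed sign.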
